A study of Mus musculus with 8 samples.

Results

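Nlrp9b, Nlrp4f, Rpl22, Tor1aip1 and Zc3h14 are 5 of the 417 gene names, and 10 of the 469 rows, in a transcript table of mouse mature oocytes. Nlrp9b and Nlrp4f were taken as the oocyte Nlrp genes of the table. Nlrp4f, Rpl22, Tor1aip1 and Zc3h14 were taken because rows of the same gene name lay in opposite directions between the groups. They were selected on the measured difference between the groups, so their values are given as a description, with no test of their difference between the groups.

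The libraries came from metaphase II oocytes, the ovulated stage ready for fertilization, of females aged about 6 months. Ovary is the labelled tissue. The 4 Ctrl libraries are labelled L/L with genotype WT, and the 4 KO libraries are labelled L/L cre with genotype KO. Both groups carry L/L, and the cre distinguishes them. The labels name neither the targeted gene nor the promoter that drives cre, so the loss of the target was not checked here. The design text frames the comparison as oocytes with raised reactive oxygen species in the mitochondrial matrix against their controls. Oocytes were merged before lysis and amplified by Smart-seq2, which copies whole messenger RNAs from few cells, so each library is a pool.

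The deposited unit is TPM, the number of copies of a transcript, corrected for its length, among 1000000 transcripts of a library. Rows have a gene name and no transcript identifier. Those of one name are read here as different transcripts of that gene, are kept apart, and are numbered by their mean TPM over the 8 libraries, with row 1 the highest. A gene's listed total is the sum of its rows and not its whole output. Per library, the listed rows summed to 32000 to 42538 TPM in Ctrl and to 12869 to 19916 TPM in KO, and sequencing depth is unknown. The smallest fold between the group means of any row was 2.04, with 182 rows higher and 287 lower in KO. KO library 2 stood apart, with the lowest listed sum (12869 TPM), the most rows at 0 (61, against 25 to 51 in the other 7 libraries) and the lowest sum of mitochondrially encoded rows (5157 TPM, with 9827 to 14088 TPM elsewhere in KO and 22750 to 29002 TPM in Ctrl). Some of the results that depend on it are given with and without it. None of the 12 oocyte, 12 cumulus and granulosa or 11 stromal, endothelial, immune and blood marker genes checked had a row, so the cell type label could not be checked from the listed rows.

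Nlrp genes encode proteins with a nucleotide-binding domain and leucine-rich repeats. Some members, such as Nlrp3, build inflammasomes in immune cells. A set expanded in rodents, which includes the Nlrp4 and Nlrp9 genes, is expressed in oocytes and early embryos. Several oocyte members belong to or bind the subcortical maternal complex, a protein assembly beneath the egg surface that the embryo needs for its first cleavages, and Nlrp4f is among its reported partners in mice. A mature oocyte is transcriptionally silent, so its RNA is a store that is translated, protected or degraded rather than renewed. The other genes have general roles. Rpl22 encodes a protein of the large ribosomal subunit. Tor1aip1 encodes LAP1, an inner nuclear membrane protein that binds lamins and activates torsin ATPases. Zc3h14 encodes a zinc finger protein that binds the poly(A) tails of messenger RNA.

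In the GENCODE M21 annotation (GRCm38), Nlrp9b lies on chromosome 7 from 19991465 to 20073306 on the plus strand, and Nlrp4f on chromosome 13 from 65177111 to 65205977 on the minus strand. Rpl22 lies on chromosome 4 from 152325742 to 152334071 on the plus strand. Tor1aip1 lies on chromosome 1 from 156004599 to 156036480 on the minus strand. Zc3h14 lies on chromosome 12 from 98746964 to 98787753 on the plus strand. All 5 are protein coding, and no 2 of them share a chromosome.

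Nlrp4f has 3 rows for 8 annotated transcripts, of which 7 are protein coding. To show where some transcripts of this gene differ, exon junctions found in 1 annotated transcript are printed with 30 bases on each side. The sequences run 5′ to 3′ on the minus strand of chromosome 13 and come from GENCODE M21. Capitals mark the bases after the junction. The donors of Nlrp4f-202 and Nlrp4f-206 are also used by Nlrp4f-201, a full-length coding transcript, whose junction from each donor follows its counterpart. Which of these transcripts each deposited row stands for is not given in the sources used here.
Nlrp4f-202, from 65184963 to 65181702: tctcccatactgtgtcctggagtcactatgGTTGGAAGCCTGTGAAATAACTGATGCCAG
Nlrp4f-201, from 65184963 to 65183073: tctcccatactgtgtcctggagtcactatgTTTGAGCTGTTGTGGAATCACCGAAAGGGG
Nlrp4f-206, from 65187441 to 65183113: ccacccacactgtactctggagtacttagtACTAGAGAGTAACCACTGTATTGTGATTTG
Nlrp4f-201, from 65187441 to 65185133: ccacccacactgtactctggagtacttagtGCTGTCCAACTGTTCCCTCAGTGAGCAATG
Nlrp4f-203, from 65181597 to 65177663: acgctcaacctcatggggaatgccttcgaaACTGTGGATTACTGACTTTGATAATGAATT
Nlrp4f-206 is annotated as a target of nonsense-mediated decay, the pathway that removes messages with early stop codons, and the others are annotated as protein coding.

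Nlrp9b has 1 row and close relatives in the genome. Its longest coding sequence, of 3009 bases in Nlrp9b-201, was 84.6% identical to that of Nlrp9a over 2988 aligned bases and 83.8% identical to that of Nlrp9c over 2985 aligned bases. Both relatives lie on chromosome 7, 6462 and 6249 kb from Nlrp9b, and neither has a row. Coding bases 649 to 738 are printed to show a stretch in which the 3 genes can hardly be told apart, with capitals at the 5 positions where they differ. The longest run shared by all 3 within it is 48 bases.
Nlrp9b: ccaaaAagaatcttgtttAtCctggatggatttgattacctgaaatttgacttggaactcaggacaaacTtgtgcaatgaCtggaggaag
Nlrp9a: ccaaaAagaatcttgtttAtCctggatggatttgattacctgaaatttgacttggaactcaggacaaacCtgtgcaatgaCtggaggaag
Nlrp9c: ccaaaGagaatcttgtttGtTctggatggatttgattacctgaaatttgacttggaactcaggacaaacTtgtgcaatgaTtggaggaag

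Nlrp9b was the most abundant of the 10 rows, at rank 16 of 469 by mean TPM. It stood at 169, 221, 155 and 215 TPM in Ctrl libraries 1 to 4 and at 100.1, 67.2, 97.7 and 99.2 TPM in KO libraries 1 to 4. Every KO library lay below every Ctrl library. Over all 469 rows the groups were apart in this way in 57.1%, with KO below Ctrl in 35.8% and KO above Ctrl in 21.3%, so separation is common in this table and nothing is read from it for single rows. The Ctrl mean was 190.1 ± 33.1 TPM (SD, n = 4) and the KO mean 91.1 ± 15.9 TPM (SD, n = 4), a 2.09-fold lower level and a difference of -1.06 on the log2(TPM + 1) scale. That fold was the 9th smallest of the 469, and median-of-ratios scaling computed from the listed rows reduced the difference to -0.26. The KO libraries other than library 2 were close together, at 99.0 ± 1.17 TPM (SD, n = 3), and without library 2 the level was 1.92-fold lower in KO. In bulk libraries such as these, less RNA per oocyte and fewer oocytes that hold the RNA cannot be told apart.

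Nlrp4f had rows on both sides. Row 1 stood at 25.3, 52.1, 35.0 and 48.9 TPM in Ctrl libraries 1 to 4 and at 25.3, 9.27, 19.9 and 18.3 TPM in KO libraries 1 to 4. The groups overlapped, since KO library 1 lay level with Ctrl library 1 (25.33 against 25.31 TPM). The mean of the 4 Ctrl libraries was 40.3 ± 12.5 TPM (SD) and that of the 4 KO libraries 18.2 ± 6.67 TPM (SD), a 2.22-fold lower level in KO, or 1.90-fold without KO library 2.

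Nlrp4f row 2 stood at 7.84, 2.63, 4.49 and 5.21 TPM in Ctrl and at 10.9, 91.5, 10.9 and 8.86 TPM in KO libraries 1 to 4. Every KO library lay above every Ctrl library, and KO library 2 was far above the rest. The mean of the 4 Ctrl libraries was 5.04 ± 2.16 TPM (SD) and that of the 4 KO libraries 30.5 ± 40.6 TPM (SD), a 6.05-fold higher level in KO. Without KO library 2 the KO mean was 10.2 ± 1.18 TPM (SD, n = 3), 2.03-fold above Ctrl. The size of the difference for this row therefore rests on 1 library. Its direction, for which the gene was chosen, was the same without that library.

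Nlrp4f row 3 stood at 7.48, 57.8, 14.7 and 14.6 TPM in Ctrl and at 6.23, 1.06, 4.12 and 5.03 TPM in KO libraries 1 to 4. Here every KO library lay below every Ctrl library, and Ctrl library 2 was far above the other Ctrl libraries. The mean of the 4 Ctrl libraries was 23.7 ± 23.0 TPM (SD) and that of the 4 KO libraries 4.11 ± 2.21 TPM (SD), 5.76-fold lower in KO. Without Ctrl library 2 the Ctrl mean was 12.3 TPM and the level was 2.99-fold lower in KO.

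Rows 1, 2 and 3 of Nlrp4f summed to 40.6, 112.5, 54.2 and 68.7 TPM in Ctrl and to 42.5, 101.8, 34.9 and 32.2 TPM in KO libraries 1 to 4. These totals overlapped, with a mean of 69.0 ± 31.2 TPM (SD) over the 4 Ctrl and 52.8 ± 32.9 TPM (SD) over the 4 KO libraries, a difference of -0.44 on the log2(TPM + 1) scale. Without KO library 2 the KO total was 36.5 ± 5.33 TPM (SD, n = 3), 1.89-fold below Ctrl. The KO total thus depended on row 2 of that library, which alone held 91.5 of its 101.8 TPM.

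Rpl22 was listed in 2 rows, of which row 1 was the higher in all 4 Ctrl libraries and in KO library 1, and row 2 in KO libraries 2 to 4. Row 1 stood at 7.90, 11.8, 7.32 and 8.86 TPM in Ctrl and at 7.98, 1.32, 2.01 and 1.86 TPM in KO libraries 1 to 4. Of the KO libraries, library 1 lay within the Ctrl range and the other 3 lay below it. The mean of the 4 Ctrl libraries was 8.98 ± 1.999 TPM (SD) and that of the 4 KO libraries 3.29 ± 3.14 TPM (SD), 2.73-fold lower in KO. The level was 5.19-fold lower without KO library 1 and 2.27-fold lower without KO library 2.

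Rpl22 row 2 stood at 0.727, 0.3302, 0.00309 and 2.42 TPM in Ctrl and at 5.61, 7.61, 10.8 and 10.5 TPM in KO libraries 1 to 4. Every KO library lay above every Ctrl library, with KO library 1 the lowest of the KO group. The mean of the 4 Ctrl libraries was 0.870 ± 1.07 TPM (SD) and that of the 4 KO libraries 8.64 ± 2.48 TPM (SD), 9.93-fold higher in KO. That was the largest fold among the 10 rows, taken over a Ctrl mean below 1 TPM. With each library left out in turn, it ran from 7.46-fold (without Ctrl library 3) to 24.5-fold (without Ctrl library 4). Its difference of 2.49 on the log2(TPM + 1) scale was 3.94 when 0.1 was added in place of 1, and 1.21 when 5 was added.

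The listed total of Rpl22 stood at 8.63, 12.2, 7.33 and 11.3 TPM in Ctrl and at 13.6, 8.94, 12.8 and 12.4 TPM in KO libraries 1 to 4. Its mean was 9.85 ± 2.25 TPM (SD) over the 4 Ctrl and 11.9 ± 2.06 TPM (SD) over the 4 KO libraries, a difference of 0.26 on the log2(TPM + 1) scale with overlapping groups. The 2 rows thus differed 2.73-fold and 9.93-fold in opposite directions while their sum differed 1.21-fold. Rows of opposite direction partly cancel in a sum.

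Tor1aip1 had 2 rows with more scatter. Row 1 stood at 13.02, 23.7, 5.91 and 6.46 TPM in Ctrl and at 4.73, 6.30, 4.95 and 2.44 TPM in KO libraries 1 to 4. KO library 2 lay inside the Ctrl range. The mean of the 4 Ctrl libraries was 12.3 ± 8.30 TPM (SD) and that of the 4 KO libraries 4.61 ± 1.601 TPM (SD), 2.67-fold lower in KO.

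Tor1aip1 row 2 stood at 5.44 TPM in Ctrl library 1, was listed at 0 in Ctrl libraries 2 and 4 and at 0.00747 TPM in Ctrl library 3, and stood at 1.28, 8.37, 3.79 and 4.15 TPM in KO libraries 1 to 4. The groups overlapped through Ctrl library 1 alone, which was higher than every KO library except library 2. A value of 0 in such a table can be a failed estimate for that transcript, so the libraries of this row are given one by one. Its listed total with row 1 was 18.5, 23.7, 5.91 and 6.46 TPM in Ctrl and 6.01, 14.7, 8.74 and 6.59 TPM in KO libraries 1 to 4, which overlapped.

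Zc3h14 had the lowest mean listed total of the 5 genes. Row 1 stood at 5.29, 7.07, 4.58 and 5.54 TPM in Ctrl and, in KO, at 3.99 TPM in library 1, 0 in library 2, 2.42 TPM in library 3 and 0.0259 TPM in library 4. Every KO library lay below every Ctrl library, but KO libraries 1 and 3 kept a measurable level. Row 2 stood at 1.95, 0.373, 2.19 and 0.720 TPM in Ctrl and at 4.08, 7.60, 1.78 and 4.88 TPM in KO libraries 1 to 4. KO library 3 lay inside the Ctrl range of that row and the other 3 lay above it. The row 2 mean was 1.31 ± 0.898 TPM (SD) over the 4 Ctrl and 4.58 ± 2.40 TPM (SD) over the 4 KO libraries, 3.501-fold higher in KO. Without KO library 2, the highest for this row, it was 2.73-fold higher.

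The listed total of Zc3h14 stood at 7.24, 7.44, 6.77 and 6.26 TPM in Ctrl and at 8.07, 7.60, 4.19 and 4.90 TPM in KO libraries 1 to 4. Its mean was 6.93 ± 0.526 TPM (SD) over the 4 Ctrl and 6.19 ± 1.93 TPM (SD) over the 4 KO libraries, a difference of -0.18 on the log2(TPM + 1) scale. Among the Ctrl libraries the total varied less than either row: its coefficient of variation was 7.59%, against 18.7% for row 1 and 68.6% for row 2. That also held for Tor1aip1 (65.1%, against 67.5% and 199.6%). It did not hold for Nlrp4f or Rpl22, whose totals varied more than row 1 (45.2% against 30.9%, and 22.9% against 22.3%). The split was another in KO. There the total varied less than either row for Zc3h14 (31.2%, against 121.3% and 52.4%) and Rpl22 (17.2%, against 95.3% and 28.8%). It varied more than row 1 for Tor1aip1 (43.9% against 34.8%) and Nlrp4f (62.3% against 36.7%).

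**Figure D1:**
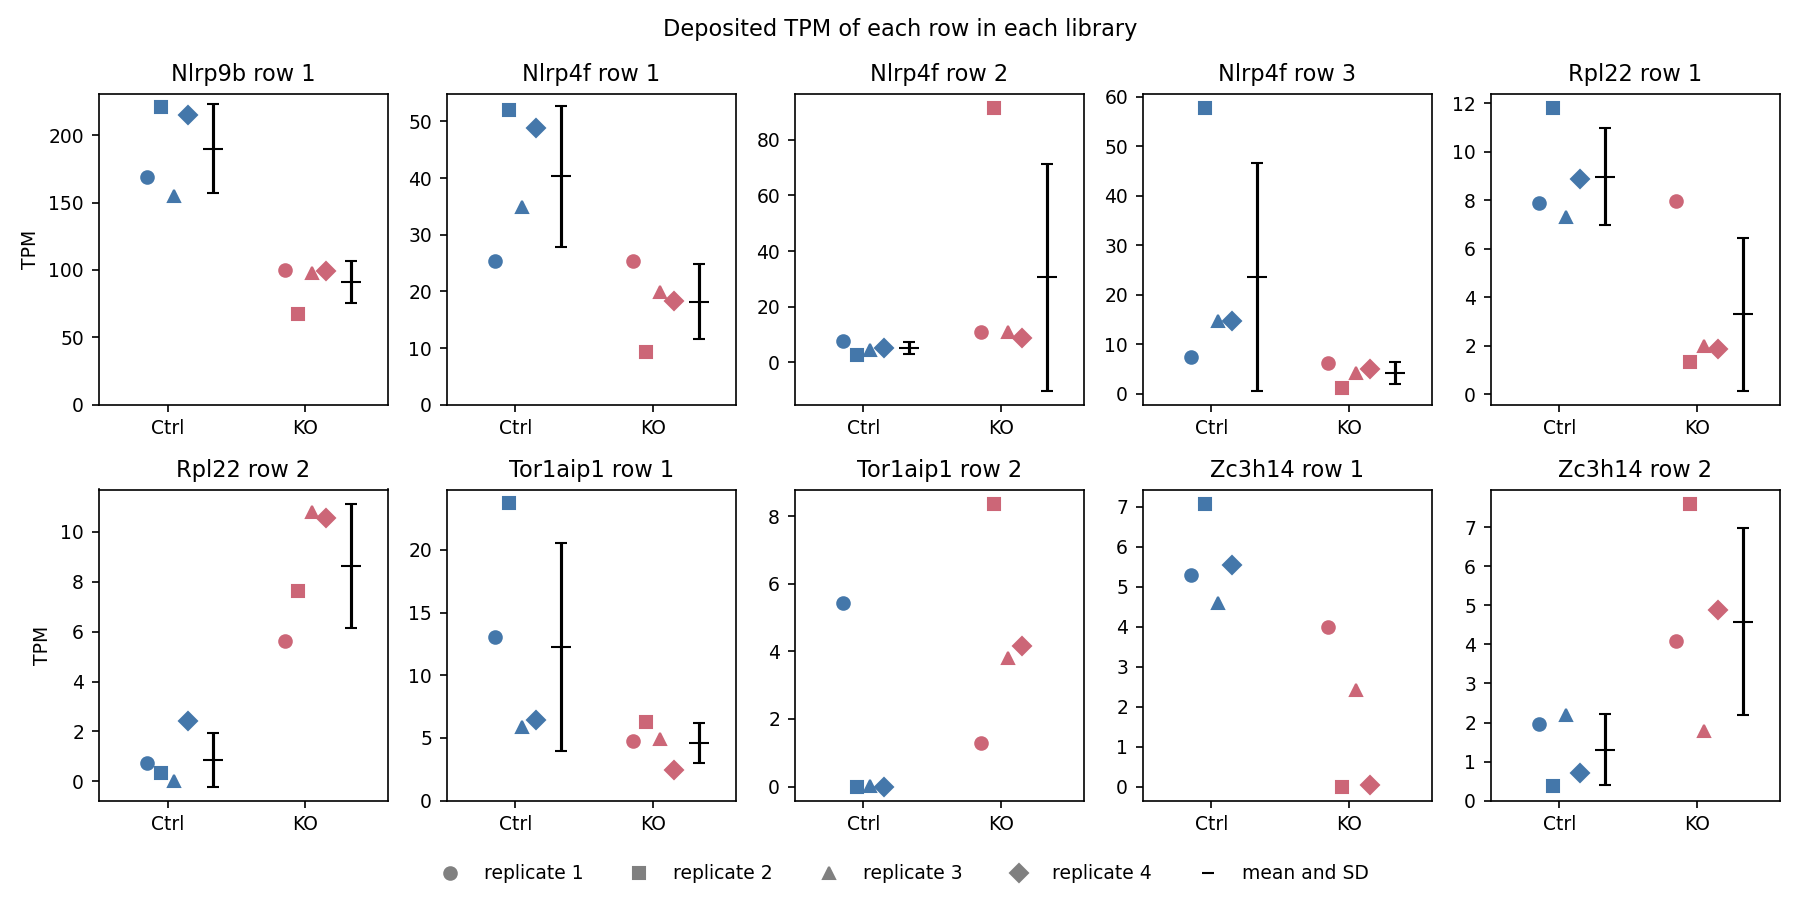
TPM of each of the 10 rows in each library (y axis, TPM, with its own range in each panel), for 4 Ctrl (blue) and 4 KO (red) libraries; the symbol gives the replicate number, and the bar gives the mean and SD, drawn only for rows with no value of 0. KO library 2 (square) stands at 91.5 TPM in Nlrp4f row 2, far above the other 7 libraries, and KO library 1 (circle) stands among the Ctrl libraries in Rpl22 row 1.

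Of the 10 rows, 4 were higher and 6 lower in KO by their group means, and 5 had groups that did not overlap, 2 above and 3 below. By gene, the rows with no overlap were the Nlrp9b row, 2 of 3 for Nlrp4f, 1 of 2 for Rpl22, 0 of 2 for Tor1aip1 and 1 of 2 for Zc3h14. With each library left out in turn, the number of rows without overlap ranged from 5 to 7. The share for all rows, 57.1%, is given above. Nothing is read from these counts, since the rows were selected on this contrast. Their median difference was -1.08 on the log2(TPM + 1) scale, beside -1.04 over all 469 rows. All 10 rows had a mean of at least 1 TPM, and 2 of them held a value of 0.

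**Figure D2:**
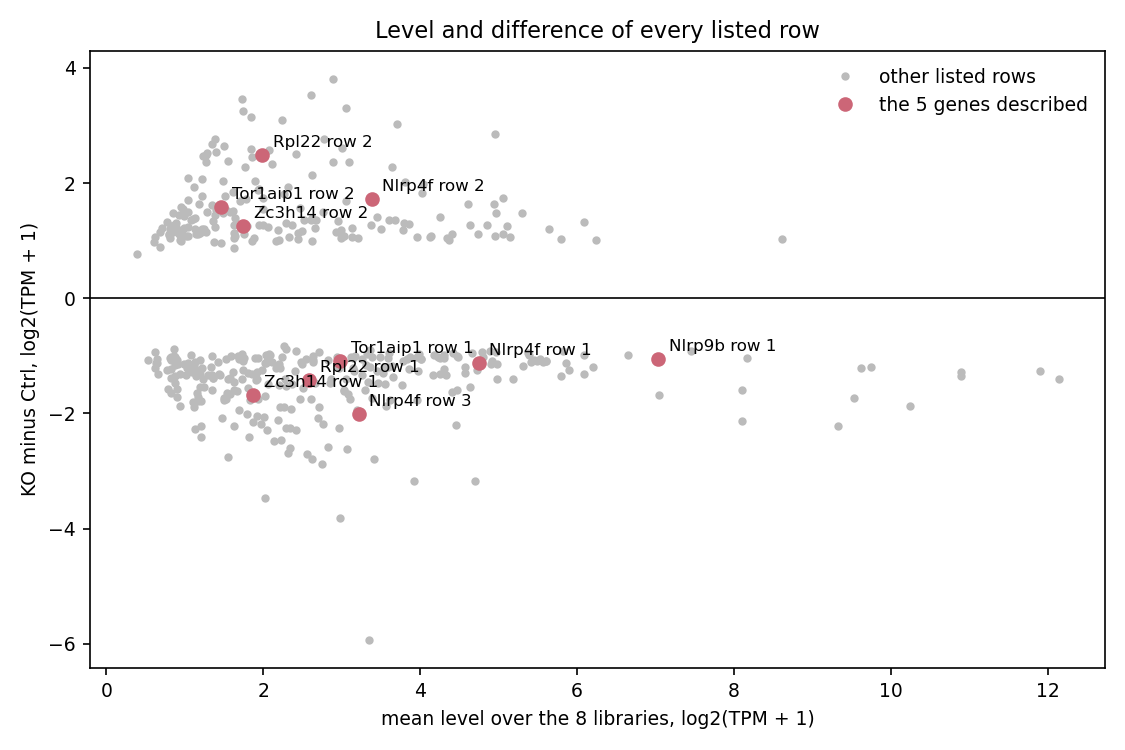
Mean level over the 8 libraries (x axis, log2(TPM + 1)) and difference between the group means (y axis, KO minus Ctrl, log2(TPM + 1)) for the 469 rows, with the 10 rows of the 5 genes in red. No row lies near 0, as the smallest fold in the table is 2.04, and Nlrp9b is the most abundant of the 10.

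The share of each row in its gene's listed total compares rows within 1 library and does not move when that library is rescaled as a whole. Row 1 of Rpl22 held 91.6%, 97.3%, 99.96% and 78.6% of the listed total in Ctrl libraries 1 to 4 and 58.7%, 14.8%, 15.7% and 15.0% in KO libraries 1 to 4. The groups did not overlap, and KO library 1 lay between the other KO libraries and the Ctrl libraries. The mean share was 91.8% ± 9.53 (SD, n = 4) in Ctrl and 26.1% ± 21.8 (SD, n = 4) in KO, 65.8 percentage points lower in KO, and row 2 held the remainder.

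For Zc3h14, row 1 held 73.0%, 95.0%, 67.6% and 88.5% in Ctrl and 49.4%, 0%, 57.6% and 0.528% in KO libraries 1 to 4. All KO shares lay below all Ctrl shares, and the KO libraries fell into a pair near equal division and a pair with row 2 almost alone. The means differed by 54.2 percentage points, or by 45.2 points without KO library 2. For Tor1aip1, row 1 held 70.5%, 100%, 99.9% and 100% in Ctrl and 78.8%, 42.9%, 56.7% and 37.0% in KO libraries 1 to 4. The groups overlapped, because library 1 of Ctrl lay below library 1 of KO. The means differed by 38.8 percentage points, or by 35.1 points without KO library 2. The shares of 0% and 100% rest on rows listed at 0.

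For Nlrp4f, row 1 held 62.3%, 46.3%, 64.6% and 71.1% in Ctrl and 59.7%, 9.10%, 57.0% and 56.8% in KO libraries 1 to 4. Apart from KO library 2, the KO shares lay within the Ctrl range, and the difference of -15.4 percentage points was -3.26 points without that library. Row 2 held 19.3%, 2.34%, 8.29% and 7.59% in Ctrl and 25.7%, 89.9%, 31.2% and 27.6% in KO libraries 1 to 4. No KO share of row 2 lay below a Ctrl share, and the difference of 34.2 percentage points was 18.8 points without KO library 2. Row 3 held 18.4%, 51.4%, 27.1% and 21.3% in Ctrl and 14.7%, 1.04%, 11.8% and 15.6% in KO libraries 1 to 4. Its KO shares all lay below its Ctrl shares, with a difference of -18.8 percentage points, or -15.5 points without KO library 2 and -11.5 points without Ctrl library 2. Row 3 exceeded row 2 in Ctrl libraries 2, 3 and 4, and row 2 exceeded row 3 in Ctrl library 1 and in all 4 KO libraries.

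**Figure D3:**
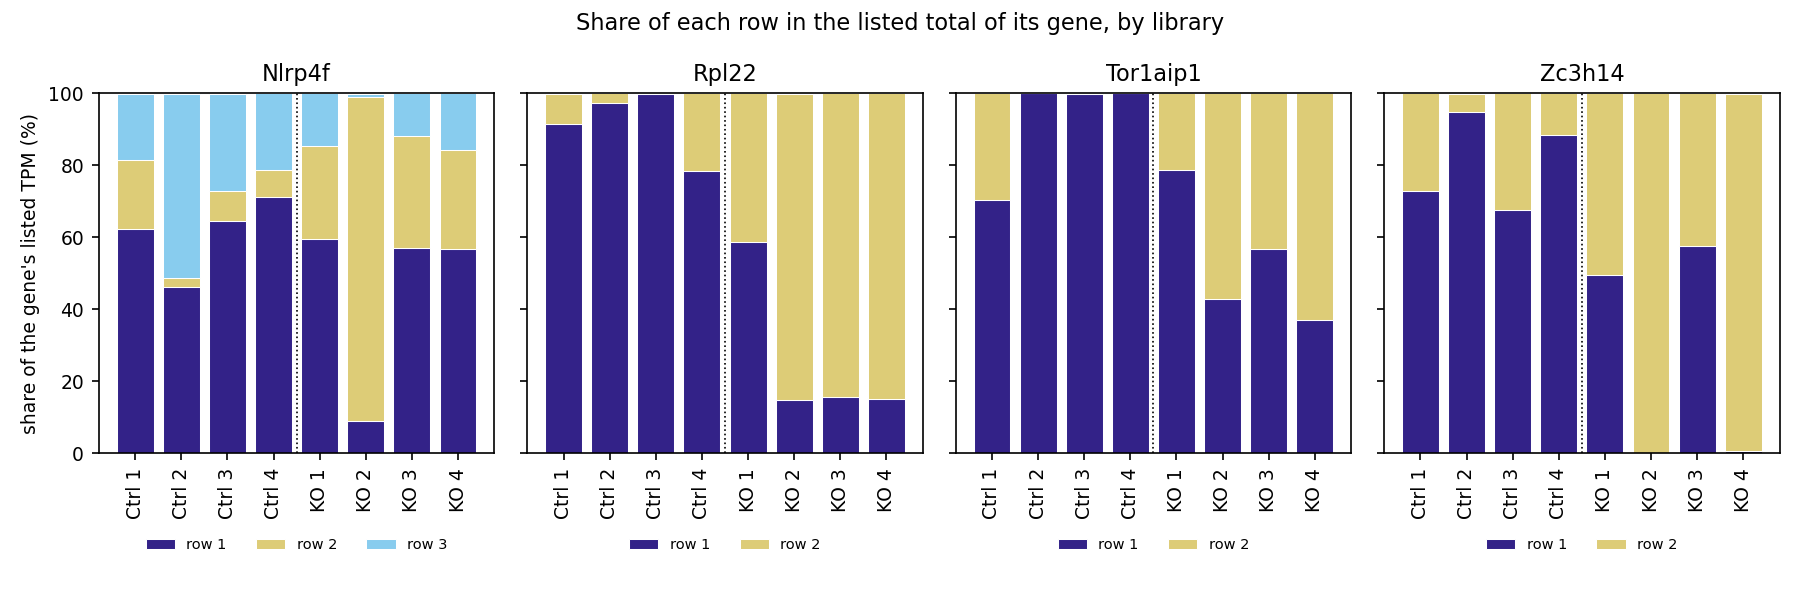
Share of each row in its gene's listed TPM (y axis, percent) in each of the 8 libraries, with Ctrl left and KO right of the dotted line. In Rpl22, row 1 (dark) holds 78.6% to 99.96% in Ctrl, 14.8% to 15.7% in KO libraries 2 to 4 and 58.7% in KO library 1, and in Nlrp4f, KO library 2 stands apart with row 2 at 89.9%.

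Rows of one name were not usually at odds. Of the 44 genes with 2 or more rows, 4 had rows of opposite direction, and these were Nlrp4f, Rpl22, Tor1aip1 and Zc3h14. Leaving out each library in turn gave the same 4 genes each time. Nothing is read from this, since the genes were chosen for these directions in the same libraries. The other 40 genes had all of their rows on one side. In 4 of those 40 a library had every row at 0, so shares could be compared in 36. The largest change of any row's share was between 34.2 and 65.8 percentage points in the 4 genes (median 46.5) and between 0.529 and 45.6 points in the 36 (median 7.13). Shares of the row with the largest change did not overlap between the groups in 3 of the 4 and in 7 of the 36. Opposite rows must shift their shares, so this contrast follows from how the genes were chosen and is given as a description.

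By the size of that change, Rpl22 and Zc3h14 held ranks 1 and 2, Tor1aip1 rank 4 and Nlrp4f rank 5. Without KO library 2 their ranks were 1, 2, 5 and 7, and the changes ran from 18.8 points (Nlrp4f) to 62.0 points (median 40.2), against 0.117 to 44.6 points (median 5.99) in the 36. At rank 3 with all libraries was Pard3, a cell polarity gene, whose row 2 held 70.5% ± 31.4 (SD, n = 4) of the listed total in Ctrl and 24.9% ± 3.72 (SD, n = 4) in KO while all 3 of its rows were higher in KO. The Pard3 shares in Ctrl rest in part on rows listed at 0. Morc3 followed with -27.6 percentage points and Rrm2b, a ribonucleotide reductase subunit, with 19.6 points. The listed totals differed by 0.18 to 0.44 in size on the log2(TPM + 1) scale in the 4 genes (median 0.33) and by 0.95 to 2.91 in the 36 (median 1.39). Opposite rows partly cancel in a sum and rows of one direction add, so this contrast follows from how the genes were chosen. The direction of 3 totals depended on the scaling, as median-of-ratios scaling turned Nlrp4f to 0.35, Tor1aip1 to 0.32 and Zc3h14 to 0.51, and quantile normalization turned Zc3h14 to 0.055, while no single row of these genes reversed under either. Some rows came closer to 0 under median-of-ratios scaling, with Nlrp4f row 1 going from -1.13 to -0.36, Tor1aip1 row 1 from -1.10 to -0.40 and Rpl22 row 1 from -1.43 to -0.78.

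**Figure D4:**
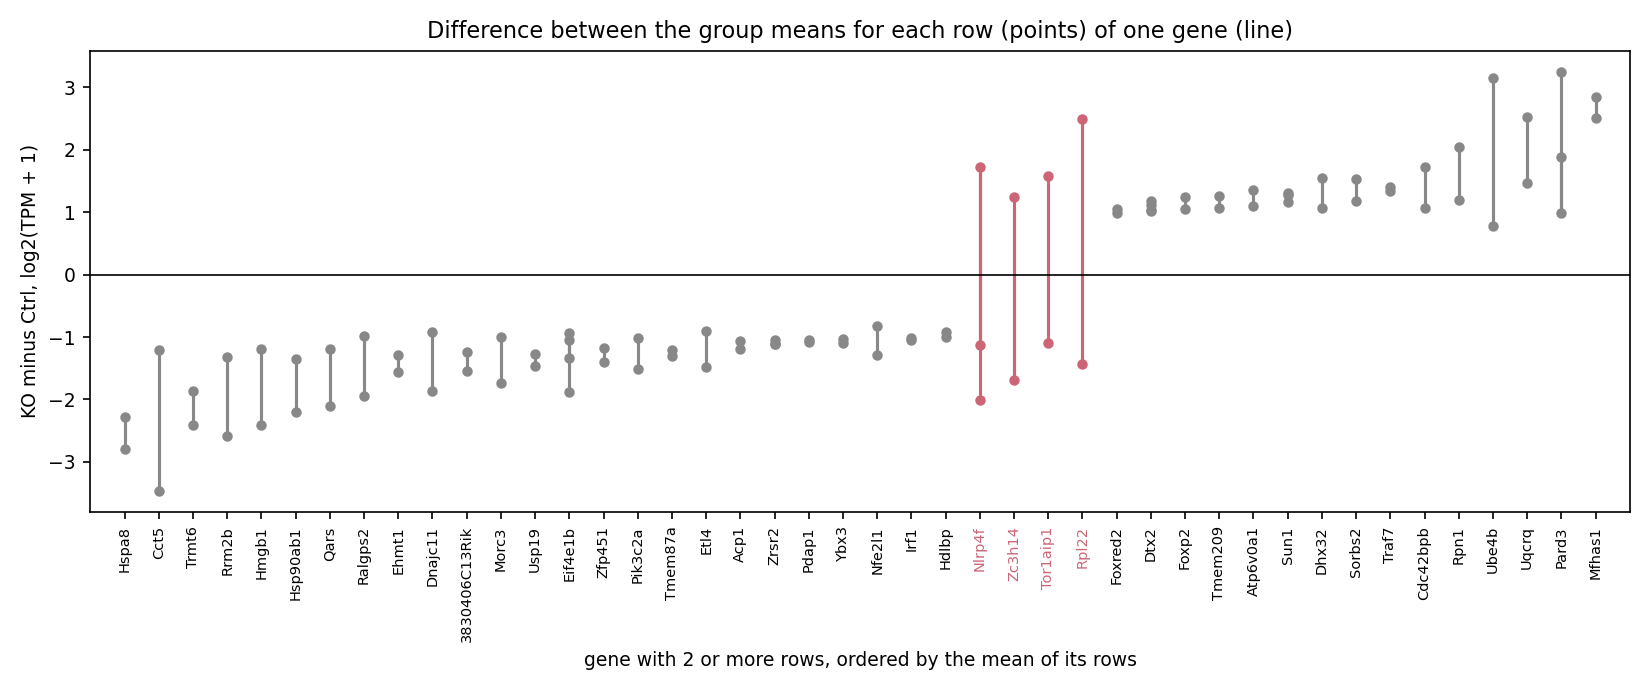
Difference between the group means (y axis, KO minus Ctrl, log2(TPM + 1)) for each row (points) of the 44 genes with 2 or more rows, with a line joining the rows of one gene. The 4 genes in red are those whose line crosses 0, and the lines of the other 40 stay on one side.

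The other genes of the same pathways were mostly not among the listed rows. Of 13 oocyte Nlrp genes, 2 had a row, Nlrp9b and Nlrp4f, and Nlrp2, Nlrp5, Nlrp14 and the other Nlrp4 and Nlrp9 genes were not analysed here. Of 10 genes of the subcortical maternal complex and its partners, 1 had a row, which was Nlrp4f again. None of the 13 inflammasome genes checked had one, in a list that left out the oocyte Nlrp genes. Rpl22 was the only 1 of 48 genes of the large ribosomal subunit with a row, and Zc3h14 the only 1 of 18 genes of poly(A) binding, polyadenylation and RNA export. Absence from the listed rows says nothing on whether a gene changed.

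Torsins, the nuclear lamina and the inner nuclear membrane formed the only list that held listed genes other than the 5. Of its 19 genes 3 were listed, Tor1aip1, Sun1 and Syne2. Sun1 spans the inner nuclear membrane and Syne2 the outer one, and such pairs link the nucleus to the cytoskeleton. In a limma fit over the 450 rows with a mean of at least 1 TPM, 426 rows (94.7%) passed an adjusted p of 0.05, 166 (36.9%) higher and 260 (57.8%) lower in KO. Under median-of-ratios scaling the split was 170 higher and 49 lower, and under quantile normalization 169 higher and 113 lower. Passing is therefore the rule in this preselected table. The adjustment covers only the preselected rows, so the adjusted p below are descriptive and nothing is read from them. Sun1 row 1 averaged 6.13 ± 2.74 TPM (SD) over the 4 Ctrl and 15.4 ± 3.25 TPM (SD) over the 4 KO libraries, with a log2 fold change of 1.27 ± 0.430 (SE) and a limma adjusted p of 0.0212. Its rows 2 and 3 were also higher, with log2 fold changes of 1.31 ± 0.529 (SE, limma adjusted p = 0.0317) and 1.16 ± 0.403 (SE, limma adjusted p = 0.0227). Each of these calls was lost when Ctrl library 2 was left out, with limma adjusted p of 0.0599, 0.0976 and 0.0725. Syne2 ran from 3.69 to 24.5 TPM in Ctrl and from 0 to 5.34 TPM in KO, with a log2 fold change of -2.26 ± 0.644 (SE) and a limma adjusted p of 0.0135, a call that median-of-ratios scaling ended (limma adjusted p = 0.0539). Unlike those of Tor1aip1, the 3 rows of Sun1 lay on one side.

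Rows most like the Nlrp rows in their pattern over the 8 libraries were found by the root mean square difference of log2(TPM + 1), after subtracting each row's own mean, among rows with a mean of at least 5 TPM. Nearest to Nlrp9b among 246 rows was Aspm, which encodes a spindle pole protein, at 0.12 against a median of 0.72 over the rows compared. Aspm averaged 424 ± 119.5 TPM (SD) over the 4 Ctrl and 205 ± 46.8 TPM (SD) over the 4 KO libraries. Ppwd1 (0.14) and row 1 of Acp1 (0.16) came next.

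Each Nlrp4f row had its own nearest rows among 244. For row 1 these were row 1 of Pik3c2a (0.20), the chaperonin subunit Cct2 (0.21) and the kinase Cdk11b (0.21), against a median of 0.72. Closest to row 2 were Vta1 (0.42), Steap2 (0.52) and row 1 of Tmem209 (0.57), against a median of 1.86. Each of them was also highest in KO library 2, at 31.4, 28.01 and 127.9 TPM, which follows from picking rows like row 2. For row 3 the nearest were row 2 of Pik3c2a (0.54), Med6 (0.60) and the mitochondrially encoded mt-Nd6 (0.63), against a median of 1.05. The 8 libraries are shared by all of these values, so likeness here is a description. The distance also grows with a row's own spread, so distances are not compared between the Nlrp4f rows.

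Listed neighbours were few. Within 500 kb of the 5 genes, only Rpl22 had any, Dnajc11 and Camta1, among 30 annotated genes in that span. Dnajc11, a mitochondrial cochaperone gene 344 kb away, had 2 rows, 2.09-fold and 4.5995-fold lower in KO, with no overlap in either. Camta1, 464 kb away, ranged from 0.201 to 11.9 TPM in Ctrl, and 3 of the 4 KO libraries list it at 0.

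How far rows of one name can be told apart depends in part on the sequence that each transcript has to itself. Annotated transcripts were cut into all stretches of 31 bases, and those found in no other annotated transcript were counted. Nlrp9b had 4 transcripts, with a median of 27.2% such stretches. For the genes with several rows the medians were 4.32% in Nlrp4f (8 transcripts, 0.143% to 19.3%), 17.2% in Rpl22 (8 transcripts, 0% to 41.5%), 5.46% in Tor1aip1 (10 transcripts, 0% to 40.5%) and 5.54% in Zc3h14 (13 transcripts, 0% to 83.3%). These 4 were not unusual, as the 40 other genes with several rows ranged from 0% to 47.7% (median 6.91%, against 5.50% for the 4). Their number of annotated transcripts was also within the range of the others, at 8 to 13 (median 9) against 3 to 36 (median 10).

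Some transcripts of the 5 genes had almost no stretch of their own. A stretch shared by only some transcripts of a gene can also separate them, and such stretches were not counted. The 3 protein-coding transcripts of Rpl22, of 474, 2051 and 2048 bases, share 1 coding sequence of 384 bases and have 0, 1 and 0 stretches of their own. They hold 444, 2021 and 2018 stretches in all, so the longer ones have many that the shortest lacks. The full-length coding transcripts Nlrp4f-201 and Nlrp4f-204 share a coding sequence of 2811 bases and have 5 and 27 stretches of their own out of 3497 and 3521. Transcripts that share a coding sequence encode the same protein. Which transcripts the rows stand for was not tested.

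**Figure D5:**
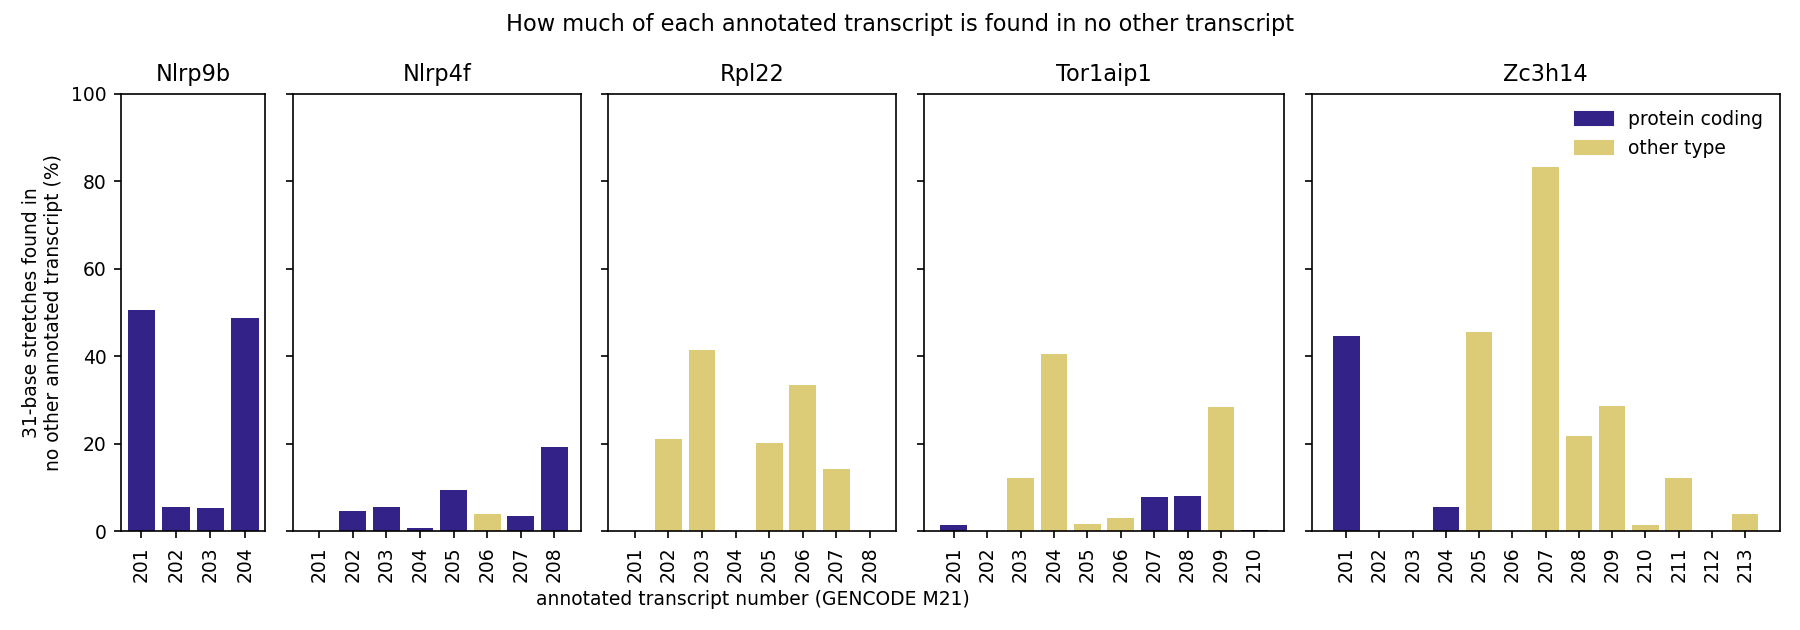
Percent of the 31-base stretches of each annotated transcript that occur in no other annotated transcript (y axis), by transcript number of the 5 genes (x axis). Protein-coding transcripts are dark, other types light. The coding transcripts of Rpl22 stand at or near 0, as does Nlrp4f-201, whereas Zc3h14-207, annotated as a retained intron, stands at 83.3%.

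Parts of each gene are also found in other genes, so reads could be divided with them and the levels are uncertain in that respect. Stretches shared with any other gene made up 11.9% in Nlrp9b, 15.9% in Nlrp4f, 6.79% in Rpl22, 12.03% in Tor1aip1 and 19.5% in Zc3h14. For Nlrp9b the named partners were Nlrp9a (5.77%) and Nlrp9c (3.76%), and for Nlrp4f the partner was Nlrp4g on chromosome 9 (10.3%). Rpl22 shared 4.39% with its pseudogene Rpl22-ps1. Tor1aip1 overlaps Tor1aip2, on the opposite strand, by 1078 bases, and 11.7% of its stretches were shared with it. Zc3h14 overlaps Eml5, also on the opposite strand, by 949 bases and shared 11.4% with it. None of these partners has a row, and whether the counting used strand is not given in the sources used here. Zc3h14 also shared 7.57% of its stretches with Gm18726.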

How the data were processed

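Samples were grouped by their titles, and each of the 8 library columns was matched to 1 sample by name. The deposited values are TPM. The tools behind them, per the submitters' processing notes, were kallisto 0.46.2 with sleuth 0.30.1, on build GRCm38. What annotation release served, how reads were counted and how the 469 rows were picked is not stated in the labels or the table. Nothing in the labels ties a library to an animal of its own, so p-values cover the spread between libraries alone, and that spread could be technical. None of the 28 pairs of libraries held identical values.

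The 5 genes, the gene lists and the tests were chosen with earlier results of these data known. Rows of one name were kept apart, and means, SDs, folds and shares were computed from the TPM. Differences use log2(TPM + 1), which understates changes of low rows. For the share of rows called and for list genes other than the 5, rows with a mean of at least 1 TPM were fitted with limma 3.58.1 in R 4.3.3 (eBayes with trend, two-sided, Benjamini-Hochberg adjustment over the 450 rows, threshold 0.05). That step was first tested on simulated data. Named besides the 5 genes are listed pathway genes with a row, up to 4 per list, the 3 nearest rows, the 3 other genes with the largest change of share, and listed genes within 500 kb. Positions, transcripts and sequences come from GENCODE M21. Python 3.11.15, numpy 2.4.6, pandas 2.3.3 and matplotlib 3.10.9 were used for the rest. TPM keep no depth, so no counting interval is given and count-based tools were not run.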

Additional observations from a re-analysis of the deposited data

Results flagged for a closer look

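Levels, totals and shares of the 5 genes were examined in each group of 4 libraries, 40 groups in all, for a highest or lowest library whose gap to the next, as a share of the group's range, exceeded Dixon's critical value. This marks single libraries and does not compare the groups. Chance alone marks about 1 in 20 groups of independent values, and these values overlap and belong to genes chosen on the same libraries, so nothing is read from the number of marks, which was 10. KO library 2 was marked 5 times. Its Nlrp9b level was 67.2 TPM, with the other KO libraries between 97.7 and 100.1 TPM. Its Nlrp4f row 2 level was 91.5 TPM, with the others between 8.86 and 10.9 TPM, and its Nlrp4f total was 101.8 TPM, with the others between 32.2 and 42.5 TPM. Row 1 of Nlrp4f held 9.10% of the listed total there, against 56.8% to 59.7% in the others, and row 2 held 89.9%, against 25.7% to 31.2%.

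KO library 1 stood apart in Rpl22 alone. Its row 1 level was 7.98 TPM, with the other KO libraries between 1.32 and 2.01 TPM, and its row 1 share was 58.7%, against 14.8% to 15.7%. Ctrl library 1 stood apart in Tor1aip1, with row 2 at 5.44 TPM against 0 to 0.00747 TPM in the other Ctrl libraries and row 1 at 70.5% of the listed total against 99.9% to 100%. Ctrl library 2 had Nlrp4f row 3 at 57.8 TPM, with the other Ctrl libraries between 7.48 and 14.7 TPM.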

How the results depend on the processing

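The 469 rows are a preselected list, so scalings computed from them alone shift every row: median-of-ratios scaling moved the median difference of all rows by 0.70 on the log2 scale and quantile normalization by 0.36. Nlrp9b (-1.06) stood at -0.26 under median-of-ratios scaling and at -0.48 under quantile normalization, and between -1.15 and -0.92 with each library left out in turn. Listed totals turned with scaling. Under median-of-ratios scaling Nlrp4f went from -0.44 to 0.35, Tor1aip1 from -0.40 to 0.32 and Zc3h14 from -0.18 to 0.51, and Rpl22 from 0.26 to 0.99. Under quantile normalization Zc3h14 stood at 0.055 and Rpl22 at 0.68. With each library left out, the totals ranged from -0.81 to -0.18 (Nlrp4f), 0.14 to 0.38 (Rpl22), -0.69 to -0.08 (Tor1aip1) and -0.30 to -0.04 (Zc3h14). The change of the row 1 share ranged from -20.4 to -3.26 percentage points (Nlrp4f), -76.7 to -62.0 (Rpl22), -47.1 to -33.2 (Tor1aip1) and -64.4 to -45.2 (Zc3h14). Of 135 differences computed under the alternatives for the 9 rows other than Nlrp9b, 0 reversed and 8 moved by more than 1 SD between replicates. The alternative with the replicate number as a block cannot move a difference of group means here, and the rows were chosen for their directions. Nothing is read from these counts.

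Leaving out libraries for the counts of rows without overlap, the genes with opposite rows and the ranks of share changes was chosen after seeing the data. The 426 limma calls (166 higher, 260 lower) became 232 (79 and 153) with a minimum mean of 5 TPM, where fewer rows are tested, 219 (170 and 49) under median-of-ratios scaling and 282 (169 and 113) under quantile normalization. With each library left out they ranged from 182 to 409 in all (182 without Ctrl library 2, 223 without KO library 2 and 244 without Ctrl library 4), 71 to 159 higher and 111 to 252 lower. Pseudocounts of 0.1 and 5, no minimum, rescaling without mitochondrial rows and eBayes without trend gave 411, 412, 444, 423 and 428, and rows summed by gene gave 377 genes. With the replicate number as a block 302 rows passed; correlations between libraries of the same number ran from -0.25 to 0.06, so the numbers were not taken as pairs. Under that block Sun1 rows 1 and 2 lost their call (limma adjusted p = 0.0518 and 0.054). Sun1 row 2 also lost it without KO library 2, 3 or 4 (0.0842, 0.0601 and 0.0647), and Sun1 row 3 without KO library 2 (0.058). For changes of calls and scaling the cause was not tested. Sequencing depth is unknown, so its limits on the rows near 0 could not be set.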
